A study of Mus musculus with 8 samples.

Results

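Basement membranes are thin sheets of extracellular matrix that wrap muscle fibres, blood vessels, Schwann cells and adipocytes. The genes described here are 10 named basement membrane components, out of 31053 genes counted in the series. They are the collagen IV chains Col4a1 and Col4a2, the multiplexins Col15a1 and Col18a1, the laminin chains Lama2, Lama4, Lamb1 and Lamc1, the linker Nid1 (nidogen) and the heparan sulphate proteoglycan Hspg2 (perlecan). The genes were taken by name, and all 10 passed the filter on low counts.

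The cells were fibro/adipogenic progenitors (FAPs), the interstitial mesenchymal cells of skeletal muscle that can become adipocytes or fibroblast-like cells. They came from the hind limbs of mdx mice (C57BL/10ScSn-Dmdmdx/J), which lack dystrophin in every group, at an age of 45 days. Cells negative for CD45, CD31 and ITGA7 and positive for SCA-1 were sorted into a state with high and a state with low surface SCA-1, named SCA1-High-FAPs and SCA1-Low-FAPs. Each state was grown for 5 days in growth medium, with no differentiation stimulus, before its RNA was extracted, and 4 replicates of each were sequenced from the 3′ ends of their mRNAs. There was no group from healthy muscle and no freshly sorted group, so the values describe cultured cells of dystrophic mice. The comparison asked how the transcriptomes of both states differed before differentiation. The series' description names SCA1-Low-FAPs as the control, while the fold changes here set that state relative to SCA1-High-FAPs.

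In a basement membrane, laminins assemble on the cell surface as trimers of an alpha, a beta and a gamma chain and bind receptors such as integrins and dystroglycan. Collagen IV trimers, mostly a pair of alpha1 chains with an alpha2 chain, form a covalent network of their own, and nidogen and perlecan link it to the laminin layer. Collagens XV and XVIII, encoded by Col15a1 and Col18a1, carry glycosaminoglycan chains and lie at the border between the basement membrane and the fibrillar matrix. In muscle, the laminin alpha2 chain anchors the fibre and its loss causes a muscular dystrophy, while the alpha4 chain is typical of vessels, nerve and mesenchymal cells.

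Col4a1 and Col4a2 lie head to head on chromosome 8, Col4a1 (ENSMUSG00000031502) on the minus strand (chr8:11198423-11312826) and Col4a2 (ENSMUSG00000031503) on the plus strand (chr8:11312805-11449287), so that their first bases overlap by 22 bases in GENCODE M21 (GRCm38). Their RefSeq start sites are 21 bases apart, at positions 11312826 and 11312805. The 300-base windows around these starts are shown because both genes start from the same stretch of DNA. Capitals mark the 78 bases that both windows hold (chr8:11312777-11312854), read on opposite strands. All windows are from the RefSeq GRCm38.p6 promoter table and run 5′ to 3′ along the gene.
Col4a1 (chr8:11312777-11313076, minus strand): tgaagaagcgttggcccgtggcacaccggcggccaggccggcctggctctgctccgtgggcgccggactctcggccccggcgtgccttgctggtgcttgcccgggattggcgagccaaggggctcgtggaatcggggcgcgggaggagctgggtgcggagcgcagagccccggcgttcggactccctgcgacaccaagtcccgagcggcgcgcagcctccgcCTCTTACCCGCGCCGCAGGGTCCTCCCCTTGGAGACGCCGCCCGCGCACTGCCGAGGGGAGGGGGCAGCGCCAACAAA
Col4a2 (chr8:11312555-11312854, plus strand): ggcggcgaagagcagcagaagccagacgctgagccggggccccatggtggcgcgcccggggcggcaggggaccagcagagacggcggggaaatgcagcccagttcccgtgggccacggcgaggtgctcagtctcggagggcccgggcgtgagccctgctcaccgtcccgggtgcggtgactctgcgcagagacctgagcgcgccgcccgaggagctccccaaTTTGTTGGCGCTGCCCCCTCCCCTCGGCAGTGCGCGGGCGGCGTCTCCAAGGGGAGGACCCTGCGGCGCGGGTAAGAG

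Col15a1 (ENSMUSG00000028339, chr4:47208161-47313167, plus strand) is shown as the gene that differed between the states. Capitals mark its CG dinucleotides. The RefSeq start used for the window, 47208012, lies upstream of the first base of the GENCODE gene.
Col15a1 (chr4:47207762-47208061, plus strand): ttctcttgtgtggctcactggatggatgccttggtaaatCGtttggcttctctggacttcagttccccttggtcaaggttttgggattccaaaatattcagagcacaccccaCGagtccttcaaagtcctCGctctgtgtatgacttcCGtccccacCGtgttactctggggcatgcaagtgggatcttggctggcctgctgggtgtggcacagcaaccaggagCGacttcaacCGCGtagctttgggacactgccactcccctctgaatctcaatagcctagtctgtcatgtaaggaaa

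Hspg2 (ENSMUSG00000028763, chr4:137468769-137570630, plus strand) is shown for its CG-rich window. Whether the CG content of a window goes with a difference between the states was not tested. Capitals mark the GGGCGG letters of the GC box.
Hspg2 (chr4:137468553-137468852, plus strand): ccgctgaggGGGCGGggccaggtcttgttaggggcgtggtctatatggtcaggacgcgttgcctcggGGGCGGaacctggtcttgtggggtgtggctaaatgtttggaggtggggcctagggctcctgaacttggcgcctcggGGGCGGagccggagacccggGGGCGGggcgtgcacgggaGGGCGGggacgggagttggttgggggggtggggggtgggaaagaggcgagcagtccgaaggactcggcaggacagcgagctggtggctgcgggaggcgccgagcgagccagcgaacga

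The promoter table held 9 windows for 8 of the 10 genes, among 32817 windows in all, with none for Lama4 and Lamc1. The collagen IV windows were the richest in CG dinucleotides among them, with 37 for Col4a1 and 33 for Col4a2, against a median of 7 over all windows. The Hspg2 window held 27 and the Col15a1 window 8. The Lama2 window held 1, the fewest of the 9. Motif letters were searched on both strands for the GC box (GGGCGG), the CCAAT box (CCAAT), the TATA box (TATAAA), an AP-1 site (TGANTCA) and a TEAD site (GGAATG). None of these motifs contains another. GGGCGG occurred in 35.6% of all windows, CCAAT in 37.4%, TATAAA in 13.6%, TGANTCA in 7.8% and GGAATG in 14.7%. The Hspg2 window held 5 GC boxes, the Col4a2 window 3 and the Col4a1 window 1, and both collagen IV windows held 1 CCAAT box, while none of the 5 motifs occurred in the Col15a1 window. None of the 9 windows held TATAAA or TGANTCA. These matches describe the letters of the windows and not factor binding, which was not measured.

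Each sample had between 1880561 and 3985656 counts on genes. Levels are given in CPM, counts per 1000000 of a library's effective size, which is its counts on the tested genes times its TMM scaling factor. At the shallowest sample a floor of 3 counts equals 1.633 CPM, and at the deepest 0.792 CPM. Libraries correlated with the other libraries of their own state at a mean r of 0.910 to 0.939 and with the other state at 0.854 to 0.919. SCA1-Low-FAPs replicate 3 had the highest mean r with the other state (0.919), close to its r of 0.928 with its own. Of the FAP markers, Ly6a, which encodes SCA-1, was higher in SCA1-Low-FAPs after culture (711 CPM in SCA1-High-FAPs against 1087 CPM, log2 fold change 0.61, adjusted p = 0.0341), although the sort was for surface protein in the opposite direction. Dpt, Dcn and Col3a1, also matrix genes of FAPs, fell in SCA1-Low-FAPs by 2.42, 2.08 and 1.03 on the log2 scale. In all, 5 of 10 FAP markers were differentially expressed, beside 7.68% of all tested genes.

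Other cell types were checked with 10 markers each. Over all tested genes, 7.68% were called and 21.3% had an unadjusted p under 0.05 (edgeR). Of the adipocyte markers, all 9 tested had negative fold changes with an unadjusted p under 0.05, and 5 were called as higher in SCA1-High-FAPs, among them Retn, Lpl, Plin4 and Lipe. The summed level of the list was 3035 to 11538 CPM there against 549 to 1501 CPM in SCA1-Low-FAPs. All 10 cell cycle markers, Aurka, Birc5, Plk1 and Top2a among them, were higher in SCA1-Low-FAPs (1363 to 2037 CPM against 676 to 955 CPM). The study itself reports a shorter doubling time in culture and more EdU uptake in mice for SCA1-High-FAPs. In its cultures, the Ki-67 share fell sooner in SCA1-High-FAPs, which became confluent earlier. Cell density at harvest of these samples is not given in the sources used here, and its part in the values was not tested. Mural markers summed to 72.6 to 121 CPM in SCA1-High-FAPs against 151 to 221 CPM in SCA1-Low-FAPs. Cspg4, Myh11 and Cnn1 were higher in SCA1-Low-FAPs and Notch3 in SCA1-High-FAPs, with Higd1b at 0 in every sample. Cnn1 alone had means of 56.8 and 143 CPM, where the list summed to means of 94.9 and 197 CPM. Of the mural markers too low to test, Rgs5, Abcc9, Mcam and Des had higher means in SCA1-High-FAPs and Kcnj8 in SCA1-Low-FAPs, so the list did not move as a whole. Endothelial markers, of a cell type that makes much collagen IV, summed to 6.60 to 16.7 CPM and 5.32 to 13.5 CPM, with Tie1, Emcn, Cldn5 and Erg at 0 in every sample. Schwann markers summed to 17.2 to 58.5 CPM and 7.62 to 11.6 CPM, with Gfra3, Erbb3 and Foxd3 at 0. Myogenic markers summed to 3.30 to 7.23 CPM and 8.88 to 18.0 CPM, with Pax7, Myf5, Myod1, Myog and Myh3 at 0. In each of the endothelial, Schwann and myogenic lists 1 marker could be tested and 0 were called by edgeR, with an unadjusted p under 0.05 for 1 myogenic marker. Immune markers summed to 28.03 to 48.4 CPM and 18.0 to 24.4 CPM, with Adgre1, Tyrobp and Itgam at 0 and Lyz2 higher in SCA1-High-FAPs. Tendon markers summed to 1225 to 2035 CPM and 1266 to 2052 CPM, with Comp higher in SCA1-High-FAPs. In bulk samples of this kind, fewer cells of a type and less RNA per cell cannot be told apart.

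The basement membrane mRNAs were present in all 8 samples of both states, and 9 of the 10 genes were not differentially expressed between them. Col15a1 was the exception, with a level 7.87-fold higher in SCA1-High-FAPs. A gene was called differentially expressed when its adjusted p was under 0.05 and its log2 fold change further than 0.5 from 0 (edgeR quasi-likelihood test, adjusted over 10181 genes). This was 1 of 10 genes, against 7.68% of all genes tested, with 4.36% higher in SCA1-High-FAPs and 3.32% higher in SCA1-Low-FAPs, so the share of the 10 was near the background. Throughout, the log2 fold change sets SCA1-Low-FAPs relative to SCA1-High-FAPs, so that a negative value means a higher level in SCA1-High-FAPs.

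Fold changes of the 10 genes had both signs. The unadjusted p was under 0.05 for 5 of the 10 genes, Col15a1, Col18a1, Lama4, Lamb1 and Nid1, all higher in SCA1-High-FAPs, where 10.8% of all genes met this limit in that direction and 21.3% in either. Replicates of the states did not overlap for 3 of the 10, Col15a1, Lama4 and Nid1, where 7.46% of all genes were separated in that direction and 14.1% in either. These counts include Col15a1. The fold change was negative for 6 genes, Col15a1 among them, and positive for 4, with a median of -0.27 on the log2 scale, beside a median of 0.0003 and 50% negative over all genes. Summed over the 10 genes, the level was 1937, 1692, 2043 and 1389.5 CPM in SCA1-High-FAPs against 1727, 1564, 1296 and 1506 CPM in SCA1-Low-FAPs, and the ranges overlapped. The mean sum was 0.177% of the effective library size in the former state and 0.152% in the latter.

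**Figure D1:**
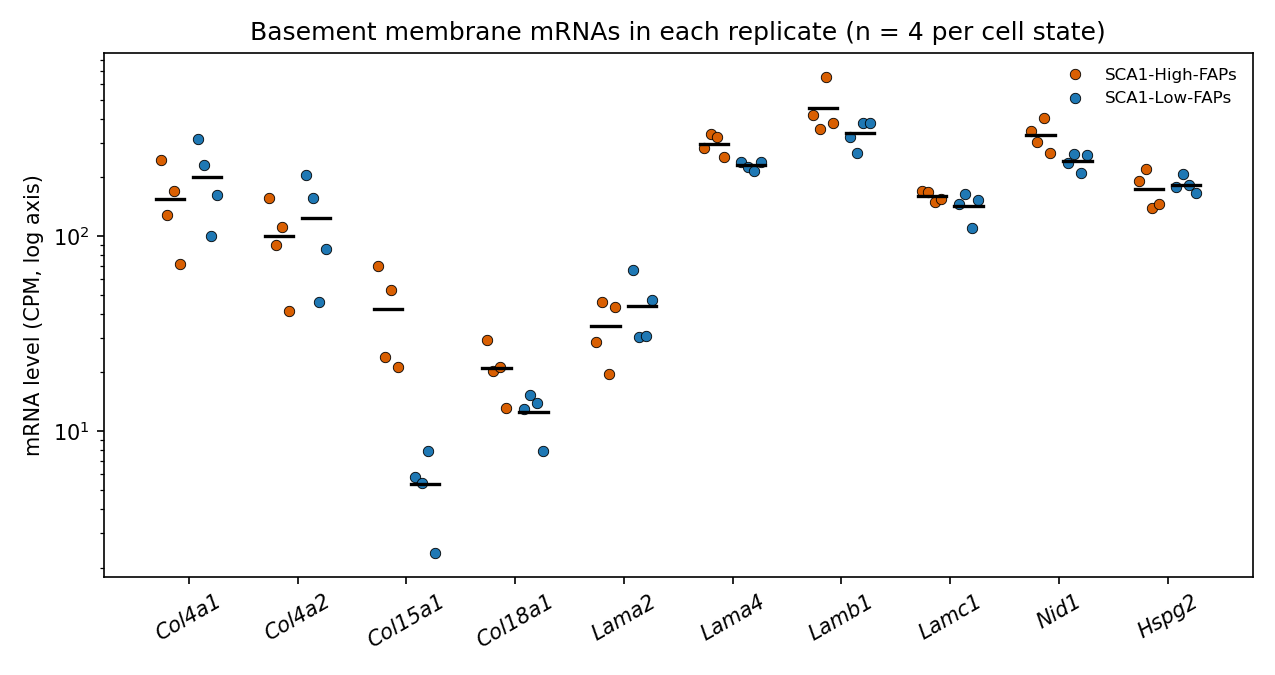
The level of each of the 10 mRNAs is plotted in CPM on a log axis, with a point for each of the 4 replicates of a cell state and a line at the mean. Only Col15a1 shows a wide gap between the states, Lama4 and Nid1 are narrowly separated, and the remaining genes overlap.

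Collagen IV mRNAs did not differ between the states beyond their spread, but both chains varied widely among replicates and did so together. Col4a1 was measured at 245.3, 129, 170.3 and 72.2 CPM in SCA1-High-FAPs replicates 1 to 4 and at 314, 230.3, 99.9 and 163 CPM in SCA1-Low-FAPs replicates 1 to 4. Replicate 1 was the highest of each state and the ranges overlapped. Means were 154 ± 72.8 CPM for SCA1-High-FAPs and 202 ± 91.9 CPM for SCA1-Low-FAPs (SD, n = 4 each), and the log2 fold change was 0.39 (SE 0.45, 95% confidence interval -0.65 to 1.43, adjusted p = 0.70). That value was 0.71 without SCA1-High-FAPs replicate 1, 0.60 without SCA1-Low-FAPs replicate 3, 0.15 without SCA1-High-FAPs replicate 4 and 0.096 without SCA1-Low-FAPs replicate 1.

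Col4a2, which encodes the alpha2 chain of the same trimer, followed Col4a1 sample by sample. Its level was 156, 90.0, 111 and 41.4 CPM in SCA1-High-FAPs against 205, 156, 45.7 and 85.5 CPM in SCA1-Low-FAPs, again with replicate 1 the highest of each state. The means were 99.8 ± 47.7 CPM and 123 ± 71.4 CPM (SD, n = 4), and the log2 fold change was 0.30 (SE 0.56, 95% confidence interval -1.02 to 1.61, adjusted p = 0.83). The direction rested on 1 library, since it was -0.064 without SCA1-Low-FAPs replicate 1. The intervals of both chains leave room for a change of more than 0.5 on the log2 scale in either direction.

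Within a sample, the Col4a2 to Col4a1 ratio of CPM stayed in a narrow band. It was 0.637, 0.698, 0.654 and 0.574 in SCA1-High-FAPs against 0.654, 0.679, 0.457 and 0.524 in SCA1-Low-FAPs. The lowest ratios were those of SCA1-Low-FAPs replicates 3 and 4, the deepest 2 libraries, and the ranges overlapped. After each state's mean was removed, log2 levels of Col4a1 and Col4a2 correlated at r = 0.988 over the 8 samples, and each was the most similar gene to the other among 10180 other tested genes. The next in line were Idh3g for Col4a1 (r = 0.967) and Pacs2 for Col4a2 (r = 0.977). The SD within states was 0.72 for Col4a1 and 0.88 for Col4a2 on the log2 scale, larger than that of 86.7% and 92.8% of tested genes, whose median was 0.38. Depth moved with these levels. Their r with log2 total counts within states was -0.64 and -0.71, against a median of 0.02 over all genes. This was not particular to collagen IV, with -0.72 for Col18a1, -0.54 for Hspg2 and 0.50 for Lamb1. The other members ran from -0.44 (Col15a1) to 0.0057 (Lama2). The part of depth in the spread was not tested. Within a sample, both collagen IV levels have the same divisor, the effective library size. The genes themselves overlap by 22 bases, far from the 3′ ends that were sequenced.

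**Figure D2:**
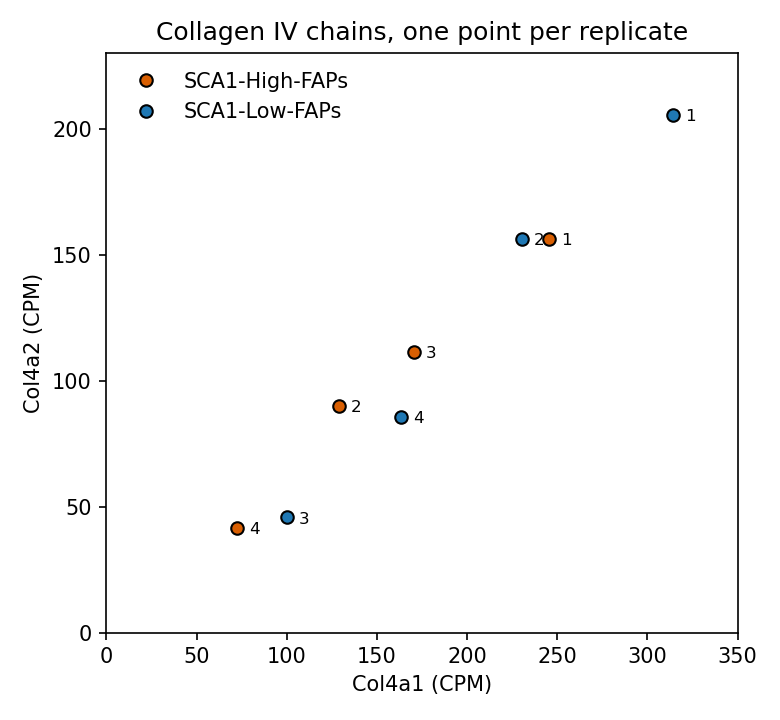
Each point is a replicate, with its Col4a1 level (CPM) on the horizontal and its Col4a2 level (CPM) on the vertical axis, coloured by cell state and numbered by replicate. The 8 points lie close to a line that runs from SCA1-High-FAPs replicate 4 up to SCA1-Low-FAPs replicate 1, with the states mixed along it.

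Col15a1 separated the states completely. Collagen XV bridges the basement membrane and the collagen fibrils of muscle and vessels. Its mRNA was measured at 70.6, 24.0, 53.0 and 21.3 CPM in SCA1-High-FAPs and at 5.80, 5.45, 7.93 and 2.38 CPM in SCA1-Low-FAPs. The lowest SCA1-High-FAPs replicate thus lay above the highest SCA1-Low-FAPs replicate. The means were 42.2 ± 23.8 CPM and 5.39 ± 2.29 CPM (SD, n = 4), and the log2 fold change was -2.98 (SE 0.45, 95% confidence interval -3.92 to -2.03, adjusted p = 0.00103). As a fold this was 7.87 times higher in SCA1-High-FAPs, with an interval of 4.09 to 15.2. The low state rested on few reads, 12, 10, 25 and 9 counts, but all were above the floor of 3 counts, and the high state on 150, 53, 127 and 58 counts. The call held in each of the 8 fits that left out a replicate, with log2 fold changes from -3.29 to -2.60 and adjusted p from 0.000231 to 0.00821, the value of -3.29 being that without SCA1-Low-FAPs replicate 3.

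Within SCA1-High-FAPs, Col15a1 also ranged from 21.3 to 70.6 CPM, with replicates 1 and 3 high and 2 and 4 low. The summed adipocyte markers, at 11538, 4859, 7069 and 3035 CPM in replicates 1 to 4, had the same order there. In SCA1-Low-FAPs these sums were 810, 1140, 1501 and 549 CPM, and replicate 3 was the highest and replicate 4 the lowest for both the markers and Col15a1. The part of adipocyte-like cells in the Col15a1 difference was not tested. Hdhd3 was the gene most similar to Col15a1 within states (r = 0.970).

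Col18a1, whose C-terminal fragment is endostatin, was lower than Col15a1 in SCA1-High-FAPs and showed a smaller difference in the same direction. It was measured at 29.2, 20.3, 21.3 and 13.2 CPM in SCA1-High-FAPs and at 13.1, 15.2, 14.0 and 7.92 CPM in SCA1-Low-FAPs. The highest 3 values were all from SCA1-High-FAPs, and replicate 4 of that state lay among the SCA1-Low-FAPs values. The means were 21.0 ± 6.54 CPM and 12.5 ± 3.21 CPM (SD, n = 4). Expressed as log2, the difference of -0.75 (SE 0.34, 95% confidence interval -1.48 to -0.03) did not pass the adjusted threshold (adjusted p = 0.215, edgeR). Counts were 27 to 62 per library. The value is also uncertain because the 3′ end of Col18a1 (ENSMUSG00000001435, chr10:77052178-77166548, minus strand) overlaps Slc19a1 on the other strand over 8825 bases, Slc19a1 held 586 counts in all, and the strand setting of the counting is not given in the sources used here.

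The ratio of Col15a1 to Col18a1 within a sample was 2.42, 1.18, 2.49 and 1.61 in SCA1-High-FAPs against 0.444, 0.357, 0.568 and 0.300 in SCA1-Low-FAPs. Col15a1 therefore gave the more tags of the pair in every SCA1-High-FAPs sample and Col18a1 in every SCA1-Low-FAPs sample. This ratio follows from the Col15a1 call and was not tested on its own. Within states, both multiplexins moved together (r = 0.87 over 8 samples). Their r with log2 total counts within states was -0.44 for Col15a1 and -0.72 for Col18a1. The gene most similar to Col18a1 was Plin1, the lipid droplet coat protein of adipocytes (r = 0.981).

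**Figure D3:**
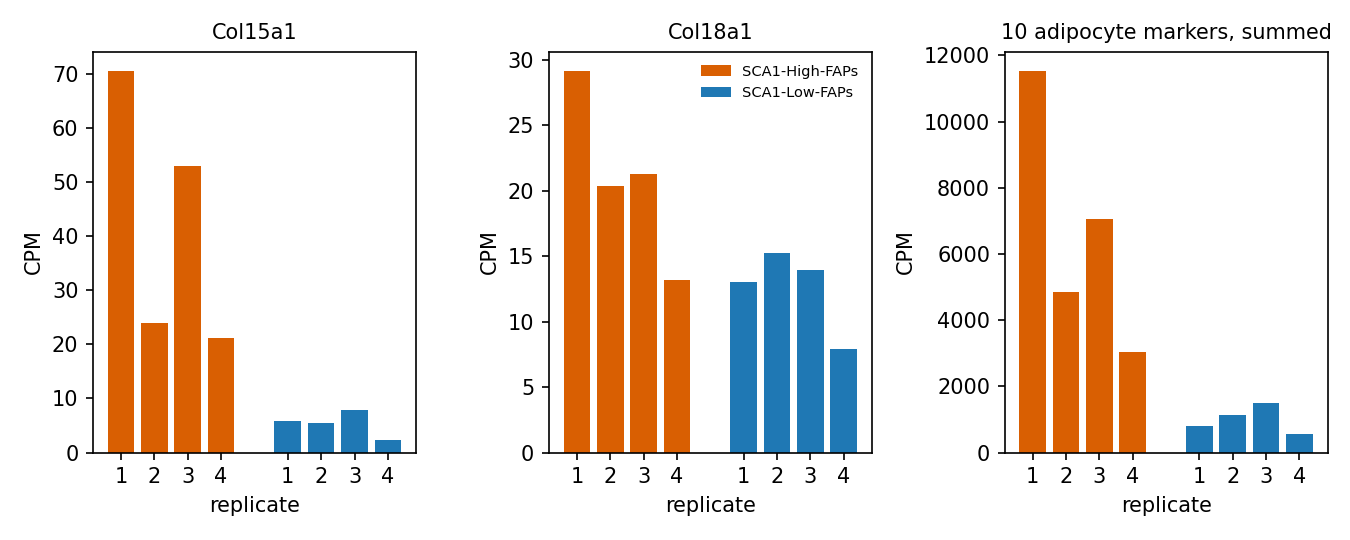
Bars give the level in CPM in each replicate of each cell state for Col15a1, for Col18a1 and for the sum of the 10 adipocyte markers, each on its own axis from 0. In SCA1-High-FAPs, replicates 1 and 3 have the taller bars for Col15a1 and the marker sum, all SCA1-Low-FAPs bars of both are lower, and Col18a1 differs less between the states.

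Among the laminin alpha chains, Lama4 was the main mRNA in both states and Lama2 the minor one. Lama4 (ENSMUSG00000019846, chr10:38965515-39110188, plus strand) was at 282.5, 334, 320.2 and 253 CPM in SCA1-High-FAPs and at 239, 226, 217 and 238 CPM in SCA1-Low-FAPs. All SCA1-High-FAPs values were above all SCA1-Low-FAPs values, by a narrow gap. The means were 297 ± 36.8 CPM and 229.9 ± 10.7 CPM (SD, n = 4). The difference was small, with a log2 fold change of -0.37 (SE 0.14, 95% confidence interval -0.67 to -0.08) that did not pass after adjustment (adjusted p = 0.122, edgeR). Lama4 was among the steadiest mRNAs, with an SD within states of 0.14 on the log2 scale, below that of all but 3.1% of tested genes.

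Lama2, the chain of the muscle fibre laminin, was measured at 28.7, 46.1, 19.6 and 43.3 CPM in SCA1-High-FAPs and at 66.7, 30.5, 30.8 and 47.3 CPM in SCA1-Low-FAPs. The ranges overlapped, and the highest value was that of SCA1-Low-FAPs replicate 1. The means were 34.4 ± 12.5 CPM and 43.8 ± 17.2 CPM (SD, n = 4), with a log2 fold change of 0.34 (SE 0.31, 95% confidence interval -0.31 to 0.99, adjusted p = 0.578). That value fell to 0.083 without SCA1-Low-FAPs replicate 1 and to 0.15 without SCA1-High-FAPs replicate 3, and was 0.52 without SCA1-High-FAPs replicate 2. Lama2 (ENSMUSG00000019899) spans chr10:26980036-27619758 on the minus strand. The ratio of Lama4 to Lama2 was 9.84, 7.25, 16.3 and 5.85 in SCA1-High-FAPs against 3.58, 7.41, 7.04 and 5.04 in SCA1-Low-FAPs. Lama4 exceeded Lama2 in each of the 8 samples, and the ratios of the states overlapped.

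Lamb1, the beta1 chain, was the most abundant of the 10 mRNAs in both states. It was at 417, 354, 655 and 378.5 CPM in SCA1-High-FAPs and at 323, 266, 378 and 381.5 CPM in SCA1-Low-FAPs. SCA1-High-FAPs replicate 3 stood above the rest, and the other replicates of the states overlapped. The means were 451 ± 138 CPM and 337 ± 54.4 CPM (SD, n = 4). Expressed as log2, the difference of -0.42 (SE 0.19, 95% confidence interval -0.82 to -0.02, adjusted p = 0.211, edgeR) missed both the p and the fold change limit. Leaving out 1 replicate moved it between -0.51 and -0.18, the latter without SCA1-High-FAPs replicate 3. The gene (ENSMUSG00000002900) lies at chr12:31265234-31329644 on the plus strand.

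Lamc1, the gamma1 chain that pairs with Lamb1 in most laminins, was at 169.5, 168, 149 and 155 CPM in SCA1-High-FAPs and at 146, 164, 109.7 and 154 CPM in SCA1-Low-FAPs. The lowest value was that of SCA1-Low-FAPs replicate 3, and the ranges overlapped. The means were 160.4 ± 10.1 CPM and 143 ± 23.6 CPM (SD, n = 4), with a log2 fold change of -0.16 (SE 0.16, 95% confidence interval -0.49 to 0.17, adjusted p = 0.612), an interval that lies within 0.5 on the log2 scale on both sides. The fold change was -0.064 without SCA1-Low-FAPs replicate 3. Lamc1 (ENSMUSG00000026478) spans chr1:153218922-153332786 on the minus strand. The Lamc1 to Lamb1 ratio was 0.406, 0.475, 0.228 and 0.409 in SCA1-High-FAPs against 0.451, 0.616, 0.290 and 0.404 in SCA1-Low-FAPs. In every sample Lamb1 gave more tags than Lamc1, and replicate 3 had the lowest ratio in both states. The log2 difference of this ratio, 0.21 for SCA1-Low-FAPs relative to SCA1-High-FAPs, had no stable sign, being -0.014 without SCA1-High-FAPs replicate 3.

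Nid1 (ENSMUSG00000005397, chr13:13437551-13512269, plus strand), the linker between laminin gamma1 and collagen IV, passed neither limit of a call, on adjusted p or on fold change. Its level was 347, 304, 403 and 266 CPM in SCA1-High-FAPs against 236, 262, 211 and 260.3 CPM in SCA1-Low-FAPs. The states were separated, but the lowest SCA1-High-FAPs value exceeded the highest SCA1-Low-FAPs value by only a few CPM. The means were 330.1 ± 59.0 CPM and 242 ± 24.3 CPM (SD, n = 4). This amounted to -0.45 on the log2 scale (SE 0.15, 95% confidence interval -0.77 to -0.12, adjusted p = 0.09, edgeR). Over the 8 fits that left out a replicate, the adjusted p ran from 0.0551 to 0.233 with log2 fold changes from -0.54 to -0.34. Relative to Lamc1, the Nid1 level was 2.05, 1.81, 2.71 and 1.72 times as high in SCA1-High-FAPs and 1.62, 1.601, 1.92 and 1.69 times as high in SCA1-Low-FAPs, with overlap.

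Hspg2, which encodes perlecan, was nearly level between the states. It was measured at 191, 221.5, 139.9 and 146 CPM in SCA1-High-FAPs and at 177, 208, 182 and 166 CPM in SCA1-Low-FAPs. The SCA1-Low-FAPs values lay inside the range of the SCA1-High-FAPs values. The means were 175 ± 38.7 CPM and 183 ± 17.7 CPM (SD, n = 4), and the log2 fold change of 0.07 (SE 0.17, 95% confidence interval -0.28 to 0.42, adjusted p = 0.869) had no stable sign, being -0.024 without SCA1-High-FAPs replicate 3 and -0.0069 without replicate 4 of that state. Set against Nid1, the other linker, Hspg2 gave a ratio of 0.551, 0.728, 0.347 and 0.549 in SCA1-High-FAPs against 0.751, 0.793, 0.865 and 0.638 in SCA1-Low-FAPs. These ratios overlapped at the single SCA1-High-FAPs replicate 2.

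**Figure D4:**
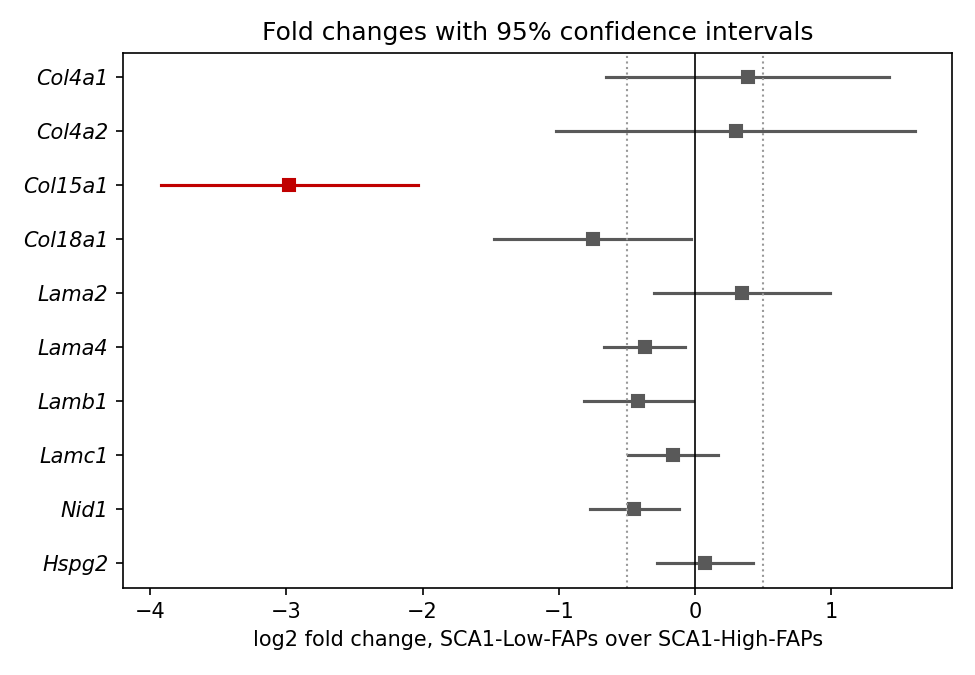
Squares give the edgeR log2 fold change of SCA1-Low-FAPs relative to SCA1-High-FAPs for each of the 10 genes and bars its 95% confidence interval, with dotted lines at the limit of 0.5 in size on both sides. The interval of Col15a1 (red) lies beyond -0.5 as a whole, those of Col18a1, Lama4, Lamb1 and Nid1 lie below 0 but reach inside the limit, and the remaining 5 span 0.

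The order of mean levels was similar in both states. Because 3′ libraries give about a single tag per transcript, CPM was compared between genes without division by length, though capture at the 3′ end can differ from gene to gene. In SCA1-High-FAPs it ran Lamb1, Nid1, Lama4, Hspg2, Lamc1, Col4a1, Col4a2, Col15a1, Lama2 and Col18a1. Of these neighbours, only Lama4 and Hspg2 had ranges that did not overlap. In SCA1-Low-FAPs the order was Lamb1, Nid1, Lama4, Col4a1, Hspg2, Lamc1, Col4a2, Lama2, Col18a1 and Col15a1. Here the ranges were apart for Lamb1 and Nid1, for Hspg2 and Lamc1 and for Lama2 and Col18a1. Col15a1 was thus 8th in SCA1-High-FAPs and last in SCA1-Low-FAPs.

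Within states the 10 genes did not vary as a single block. Besides the collagen IV pair and the multiplexin pair, Col4a1 and Nid1 correlated at r = 0.68 and Col4a2 and Lamc1 at 0.64, whereas Lamb1 and Hspg2 had r = -0.68 and Col15a1 and Lama2 r = -0.61. These are descriptions over 8 samples that share their depth and scaling. The most similar genes of the other members were Cfl1 for Lama2 (r = 0.984), Opa3 for Lama4 (0.979), Pign for Lamb1 (0.974), Tulp4 for Lamc1 (0.980), Cmtr1 for Nid1 (0.979) and Junb for Hspg2 (0.964). Each is the highest of 10180 coefficients over 8 samples, so that a value of this size was reached for every member.

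Other basement membrane genes were read from the same fit, as a list of 27. Of these, 14 were tested and 4 were differentially expressed, beside 7.68% of all tested genes. Of the 4, 3 had more mRNA in SCA1-Low-FAPs and 1 in SCA1-High-FAPs, beside 3.32% and 4.36% of all tested genes. The median log2 fold change of the 14 was -0.03. Ntn4 (netrin-4, which binds laminin) was at 7.53, 11.3, 8.77 and 5.13 CPM in SCA1-High-FAPs and at 61.9, 66.4, 19.0 and 68.4 CPM in SCA1-Low-FAPs, with a log2 fold change of 2.72 (SE 0.39, adjusted p = 0.000672). SCA1-Low-FAPs replicate 3 was the lowest of its state, yet above every SCA1-High-FAPs sample. Smoc2, a matricellular calcium-binding protein of basement membranes, was at 111, 136, 75.6 and 208 CPM in SCA1-High-FAPs and at 357, 425, 359 and 350.3 CPM in SCA1-Low-FAPs (log2 fold change 1.49, SE 0.24, adjusted p = 0.00187), with no overlap. Thus Ntn4 and Smoc2 separated the states in the direction opposite to Col15a1.

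Tinagl1, a laminin-binding matricellular protein, was called as higher in SCA1-Low-FAPs (log2 fold change 2.97, adjusted p = 0.0175, edgeR). Levels were low, 0 to 2.26 CPM in SCA1-High-FAPs against 5.71 to 13.1 CPM in SCA1-Low-FAPs. Counts were 3, 5, 0 and 2 in SCA1-High-FAPs, around the floor of 3, and 27, 13, 18 and 35 in SCA1-Low-FAPs. Tinagl1 passed the filter on low counts only through SCA1-Low-FAPs, so its direction was in part set by the filter and its size is uncertain. Fbln1 (fibulin-1), the only gene of the list that edgeR called as higher in SCA1-High-FAPs, changed by -1.03 on the log2 scale (adjusted p = 0.0441). Its ranges of 30.3 to 79.7 CPM and 17.7 to 31.0 CPM overlapped. Both calls depended on single libraries, since without SCA1-Low-FAPs replicate 1 or 4 only Ntn4 and Smoc2 were called. Tinagl1 was also lost without SCA1-High-FAPs replicate 4, and Fbln1 without SCA1-High-FAPs replicate 1, 3 or 4 or SCA1-Low-FAPs replicate 3. DESeq2 called 6 genes of the list, 3 in each direction, with Agrn (agrin) and Smoc1 added as higher in SCA1-High-FAPs. In edgeR their log2 fold changes were -1.13 and -0.93, short of the threshold (adjusted p = 0.0596 and 0.0636). Replicates of the states did not overlap for Agrn and overlapped for Smoc1. Sparc, a collagen-binding matricellular protein and the most abundant gene of the list, was at 15683 ± 3002 CPM and 11412 ± 751 CPM (SD, n = 4), with a log2 fold change of -0.46 (adjusted p = 0.0909) that passed without SCA1-High-FAPs replicate 1. Fbln2 gave 0.39 on the log2 scale (adjusted p = 0.145).

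Of the same list, Lamc3 and Frem2 had no count in any sample. The following paralogues of the members are named with their values already seen. Lama1, Lama3 and Lama5 held 5, 16 and 12 counts in all 8 samples together. Lamb2, the second beta chain, was at 222 ± 52.2 CPM and 208 ± 29.7 CPM (SD, n = 4; log2 fold change -0.10, adjusted p = 0.807). Nid2, the second nidogen, was at 104 ± 25.2 CPM and 59.8 ± 40.9 CPM, with a log2 fold change of -0.79 that did not pass (adjusted p = 0.331) but was called without SCA1-Low-FAPs replicate 3. Col4a5 was the only further collagen IV chain that could be tested, at 11.9 ± 7.45 CPM and 12.1 ± 0.866 CPM (log2 fold change 0.03, adjusted p = 0.98).

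The enzymes and chaperones that modify, fold and cross-link collagens showed no call among 17 tested of 19 listed, beside 7.68% of all tested genes. The unadjusted p was under 0.05 for 3 of them in edgeR, where 21.3% of all tested genes met this limit. DESeq2 called 1 of them, Plod2, a lysyl hydroxylase. Plod2 was at 334 ± 74.9 CPM in SCA1-High-FAPs against 226 ± 31.2 CPM in SCA1-Low-FAPs, with a log2 fold change of -0.56 and an adjusted p = 0.0519 in edgeR, just short of the threshold. Without SCA1-Low-FAPs replicate 3, P3h3, Plod2 and Pxdn were called, and without SCA1-High-FAPs replicate 2 Plod2. The most abundant were Lox, a lysyl oxidase, with a log2 value of 0.06 (adjusted p = 0.864), and Serpinh1, the collagen chaperone HSP47, with 0.07 (adjusted p = 0.904).

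The list of matrix receptors held 2 calls among 14 tested of 19 listed, both higher in SCA1-High-FAPs, beside 7.68% called over all tested genes. Itga1, the integrin alpha1 chain that binds collagen IV, was at 561, 573, 665 and 514 CPM in SCA1-High-FAPs and at 182, 258, 293 and 154 CPM in SCA1-Low-FAPs. The groups were far apart, with a log2 fold change of -1.38 (SE 0.19, adjusted p = 0.000529) that was called in all 8 fits without a replicate. Itga9 was at 131 ± 33.8 CPM and 63.5 ± 25.1 CPM (SD, n = 4), with a log2 value of -1.04 (adjusted p = 0.0208), a call lost without SCA1-High-FAPs replicate 3 or 4 or SCA1-Low-FAPs replicate 1, 2 or 4. Itgb1, the shared beta1 chain, gave a log2 value of 0.12 (adjusted p = 0.684), and the collagen receptor Ddr2 one of -0.05 (adjusted p = 0.898).

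Among matrix proteases and their inhibitors, 4 of 15 tested genes of 20 listed were differentially expressed, 2 in each direction, beside 7.68% of all tested genes. Both calls higher in SCA1-Low-FAPs were inhibitors of metalloproteinases. Timp3 was at 669, 755, 274.3 and 673 CPM in SCA1-High-FAPs and at 2348, 1701, 1275 and 1736 CPM in SCA1-Low-FAPs, without overlap (log2 fold change 1.57, SE 0.29, adjusted p = 0.00878). Timp1 was at 579 ± 132 CPM and 1129 ± 139 CPM (SD, n = 4; log2 fold change 0.96, adjusted p = 0.00185). The serine protease Htra1, at 54.6, 28.03, 78.5 and 22.0 CPM against 14.98, 18.5, 10.1 and 11.1 CPM, and the lysosomal protease Ctsb were higher in SCA1-High-FAPs, with log2 fold changes of -1.76 and -0.77 (adjusted p = 0.00853 and 0.0101). Timp2, with -0.01 (adjusted p = 0.974), and Mmp14, with 0.41 (adjusted p = 0.201), did not pass.

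**Figure D5:**
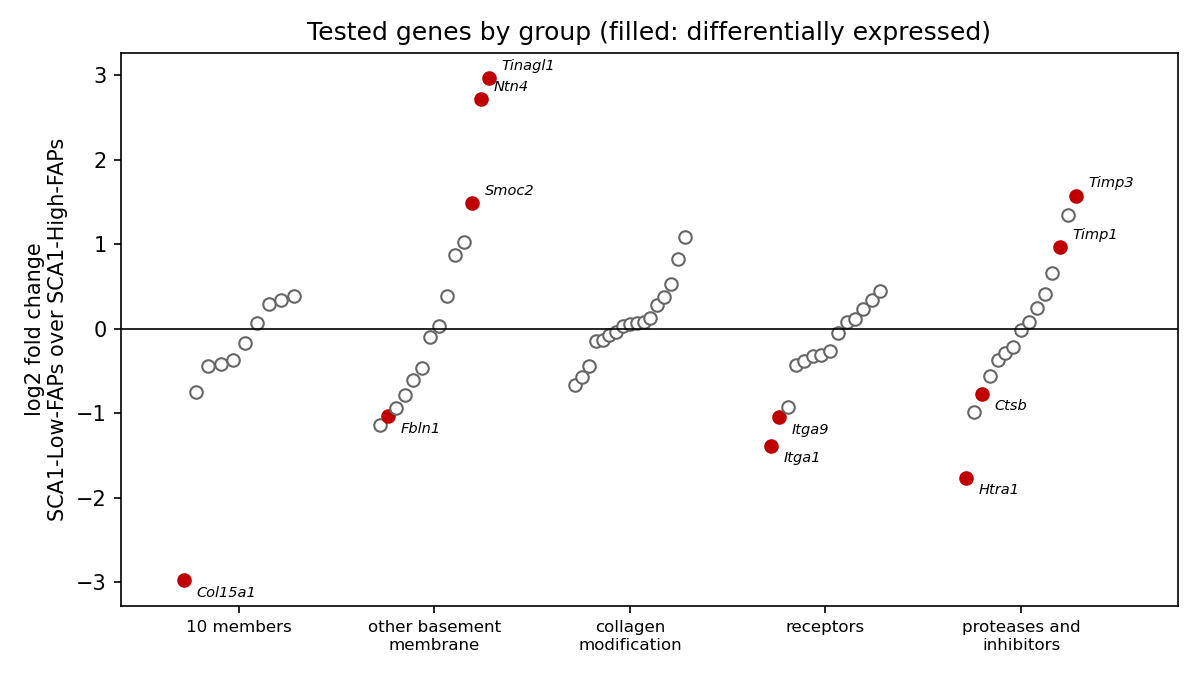
Each circle is a tested gene, placed by its log2 fold change of SCA1-Low-FAPs relative to SCA1-High-FAPs, for the 10 basement membrane genes and for the 4 related lists, with differentially expressed genes filled and named. Col15a1 is the lowest point of all and the only filled one of the 10, while Tinagl1, Ntn4 and Smoc2 are the highest of the other basement membrane genes.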

How the data were processed

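The authors made QuantSeq 3′ mRNA libraries from total RNA, trimmed the reads, aligned them with STAR to mm10 and counted them per gene of Ensembl release 93 with HTSeq. The deposited values are raw counts per gene, with no normalisation. Reads aligned to several positions (37.5% to 43.3% of all) were given to no gene, and 13.3% to 16.4% of unique reads fell on no feature. The strand setting and molecular identifiers are not given in the sources used here. CPM is the count per 1000000 of the effective library size, the counts on tested genes times the TMM factor.

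Of 31053 genes, 30934 were matched by identifier to GENCODE M21 (GRCm38). SCA1-Low-FAPs and SCA1-High-FAPs, grouped by label, were compared with the quasi-likelihood test of edgeR 4.0.16 (R 4.3.3; robust, TMM, filterByExpr with a minimum of 10 counts and 15 in total) and Benjamini-Hochberg adjustment over the 10181 genes kept. The study used DESeq2, tried here as an alternative (1.42.0), with RLE factors, no filter, a replicate block, an adjusted p under 0.01 and each replicate left out. The biological coefficient of variation was 0.279. The scripts were tested on simulated data. By the series' description the states were isolated from 4 mice. Whether equal replicate numbers mark the same mouse is not stated, so the comparison was unpaired and p-values measure the spread between these samples. A floor of 3 counts reflects counting error alone. Chi-square per degree of freedom between replicates was 7.68 to 21.8, so no library was a repeat of another.

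Similarity is Pearson's r of log2 CPM (prior count 2) after each state's mean was removed. Members and lists were chosen with earlier results of these data known. Named are the 10 members, in each related list the genes called (at most 5 in each direction by smallest p) and the 2 other genes of highest mean CPM, in marker lists the genes called (at most 4) and markers at 0, and each member's most similar gene. Some further genes are named, among them genes called only under an alternative fit.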

Additional observations from a re-analysis of the deposited data

How the results depend on the processing

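Col15a1, and no other of the 10 genes, was called under each alternative tried, in the same direction. An adjusted p under 0.01 left 307 of 782 genes called in all. It left 2 of 4 other basement membrane genes (Ntn4 and Smoc2), 1 of 2 receptors (Itga1) and 3 of 4 proteases and inhibitors (without Ctsb). DESeq2 called 6 other basement membrane genes (with Agrn and Smoc1 added) and 5 proteases and inhibitors (with Plau added). Without a filter, 5 (with Smoc1 added) and 6 (with Mmp2 and Plau added) were called in these lists. DESeq2 and the fit without a filter each called 1 collagen modification gene, Plod2, where the reported fit called 0. Leaving out each replicate in turn gave 410 to 1017 genes in all (410 without SCA1-Low-FAPs replicate 4, 417 without SCA1-Low-FAPs replicate 1), 1 of the 10 genes each time, 2 to 5 other basement membrane genes, 0 to 3 collagen modification genes, 1 to 2 receptors and 4 to 5 proteases and inhibitors. It moved the log2 fold change of Col4a2 between -0.064 and 0.60 and that of Hspg2 between -0.024 and 0.21, turning the sign of Col4a2 without SCA1-Low-FAPs replicate 1 and that of Hspg2 without SCA1-High-FAPs replicates 3 (-0.024) and 4 (-0.0069), and the cause was not tested. With RLE factors the gene most similar to Lama4 was Hirip3 (r = 0.9753). The log2 difference of the Lamc1 to Lamb1 ratio, which was not tested, also turned sign without SCA1-High-FAPs replicate 3 (0.21 to -0.014).

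The replicate number occurs in both states. Over the tested genes, samples with the same number did not deviate together (correlations of -0.0502 to 0.00673, against -0.282 to 0.255 for different numbers). With 4 samples per state, this cannot show that pairing is absent. Whether equal numbers mark the same mouse is not stated, so the numbers were not taken as pairs. With the replicate block, 697 genes were called in all, 1 of the 10 (Col15a1, log2 fold change -2.91), 3 other basement membrane genes (without Fbln1), 0 collagen modification genes, 2 receptors and 4 proteases and inhibitors. DESeq2 with the block, an alternative chosen after seeing the data, called 839 genes and again Col15a1 alone of the 10. The block changed no call of the 10 genes. It lowered the SE of the log2 fold change from 0.45 to 0.27 for Col4a1 and from 0.56 to 0.34 for Col4a2. The SE rose for Lama4, Lamc1 and Nid1 and fell for the other members. At 1880561 to 3985656 counts per library, Col15a1 in SCA1-Low-FAPs rests on 9 to 25 reads a library.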

Other observations

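Cholesterol genes were examined after it was seen that Insig1 and Fdps ranked 3 and 4 among the genes most similar to Col4a1 within states (r = 0.966 and 0.963 over 8 samples). Insig1 encodes a sterol-sensing regulator of cholesterol synthesis and Fdps an enzyme of the same route. Insig1 was at 68.3, 58.3, 65.1 and 38.9 CPM in SCA1-High-FAPs and 44.0, 37.6, 26.6 and 35.1 CPM in SCA1-Low-FAPs, with a log2 fold change of -0.69 (edgeR, adjusted p = 0.0856). Fdps went the other way, at 86.6, 80.9, 84.8 and 75.5 CPM in SCA1-High-FAPs and 118, 112, 99.6 and 102 CPM in SCA1-Low-FAPs, without overlap, and its log2 fold change of 0.40 did not pass either (edgeR, adjusted p = 0.141). Over the 9 tested of 10 listed sterol genes, chosen with these values in view, r with Col4a1 ran from -0.097 to 0.966 with a median of 0.627, beside a median of -0.024 over 10180 genes. The samples share depth and scaling, and no test was made.

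The adipocyte markers had a median r within states of 0.762 with Col18a1, 0.757 with Col15a1 and 0.502 with Col4a1, where all genes had medians of -0.002, 0.004 and -0.024. These values describe 8 samples that share depth and scaling, and the part of depth in them was not tested.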
